A study of Mus musculus with 54 samples.

Results

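Renal ammonia production and glutamine handling are described here through 8 genes, Glud1, Slc38a3, Glul, Slc25a10, Slc25a11, Got1, Got2 and Gpt2, taken by symbol from a deposited table of transcript abundance (TPM, in which each library is scaled to 1 fixed sum). All 8 were found among the 55487 rows of the table, and all 8 were among the 12742 genes high enough to test. RNA came from early proximal tubules that stained for SGLT2, the kidney's main glucose transporter, cut from kidney sections by laser capture with 70 to 80 tubules in a sample. All mice were 14-week-old DBA males. Akita mice (Ins2 Akita/+), in which a mutated insulin gene causes insulin-deficient diabetes, were compared with non-diabetic littermates (Ins2+/+). In both, Sglt1, a further glucose transporter of the proximal tubule, was either intact (Sglt1+/+, wild type) or knocked out (Sglt1-/-). Treatment lasted 2 weeks with vehicle, with the SGLT2 inhibitor dapagliflozin at 10 mg/kg diet, or with subcutaneous semaglutide, an agonist of the GLP-1 receptor, at 3 nmol/kg body weight each day.

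The table held 48 libraries in 9 groups. Knockout Akita mice gave 6 dapagliflozin and 6 vehicle libraries. Wild-type Akita mice gave 5 semaglutide, 5 dapagliflozin and 6 vehicle libraries. Knockout non-diabetic mice gave 6 dapagliflozin and 5 vehicle libraries, and wild-type non-diabetic mice gave 4 and 5. No group received semaglutide without diabetes or with the knockout. Slc5a1, the gene of Sglt1, was at most 0.123 TPM in any of 23 knockout libraries, against 0.814 to 4.29 TPM in 25 wild-type libraries, as labelled. The SGLT2 gene Slc5a2 ranged from 82.5 to 275 TPM, and the summed level of 8 early proximal tubule markers from 889 to 2209 TPM. The sequencing depth behind a TPM value is unknown, and counting error cannot be given. Libraries held 8465 to 11419 genes at 1 TPM or more (median 10116). The 4 libraries with fewer than 9000 genes were 2 wild-type and 2 knockout Akita vehicle libraries, and this touches every comparison with those groups.

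The proximal tubule makes ammonia from glutamine, which lets the kidney excrete acid and return bicarbonate to the blood. Glutamine enters from the blood through Slc38a3 and loses its amide nitrogen in the mitochondrion. Glutamate dehydrogenase, encoded by Glud1, then releases a further ammonium ion and leaves alpha-ketoglutarate, whose carbon leaves the mitochondrion as malate on its way to glucose. Metabolic acidosis is known to raise this pathway, and in rodents Slc38a3 is among the genes that respond most. In the rat kidney at rest, Slc38a3 protein is found mainly in the last (S3) segment of the proximal tubule and appears earlier along the tubule in acidosis.

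Upstream sequence was looked up for the members because all 8 lay above vehicle in deposited TPM in Akita tubules given dapagliflozin, averaged over genotypes. The median log2 difference over all genes tested was also above 0 there, at 0.17. In wild-type Akita tubules alone 7 of the 8 lay above 0. With median-of-ratios scaling, which takes out the all-gene shift, 6 of the 8 did so in the average. A RefSeq promoter table for GRCm38.p6 held 7 of the 8 members, all but Slc38a3. The 250 bases before the RefSeq start are shown 5′ to 3′ for 3 of them. Glud1 and Slc25a10 had the largest changes with dapagliflozin in Akita tubules among those 7, and Got1 held the most motif matches. Capitals mark matches to a GC box (GGGCGG) or a CCAAT box (CCAAT), read on either strand. The windows lie at chr14:34310477-34310726 on the plus strand for Glud1, at chr11:120491587-120491836 on the plus strand for Slc25a10 and at chr19:43524606-43524855 on the minus strand for Got1.
Glud1: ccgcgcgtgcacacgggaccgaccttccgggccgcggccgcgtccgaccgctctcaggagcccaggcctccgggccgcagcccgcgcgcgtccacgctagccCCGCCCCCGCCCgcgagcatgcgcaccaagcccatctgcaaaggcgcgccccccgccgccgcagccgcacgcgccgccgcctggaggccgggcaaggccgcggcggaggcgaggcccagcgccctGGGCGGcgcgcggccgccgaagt
Slc25a10: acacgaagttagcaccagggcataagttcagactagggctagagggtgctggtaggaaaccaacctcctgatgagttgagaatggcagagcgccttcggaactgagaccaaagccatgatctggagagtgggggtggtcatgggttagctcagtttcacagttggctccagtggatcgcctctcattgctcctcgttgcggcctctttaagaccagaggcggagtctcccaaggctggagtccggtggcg
Got1: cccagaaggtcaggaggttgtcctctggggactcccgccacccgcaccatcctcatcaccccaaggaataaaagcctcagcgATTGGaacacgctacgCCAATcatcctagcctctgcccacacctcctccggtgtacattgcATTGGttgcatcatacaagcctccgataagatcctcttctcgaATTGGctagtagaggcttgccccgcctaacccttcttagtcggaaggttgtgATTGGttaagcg
The Glud1 window was the richest in G and C of the 7 and held 3 GC box matches and no CCAAT box. The Got1 window was 54.4% G or C and held 5 CCAAT box matches and no GC box. The Slc25a10 window, at 56.0% G or C, held no match to either, nor to a TATA box (TATAAA), a CRE half-site (TGACG) or an E-box (CACGTG), all searched on both strands. No capital stretch belongs to more than 1 kind of motif. Among the 7 members a GC box was present in 4 and a CCAAT box in 3, against 32.9% and 34.5% of 27025 promoter windows of the same length. A TATA box was present in 1 member and in 13.0% of all windows. The CRE half-site and the E-box were in no member, and in 17.9% and 6.05% of all windows.

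TPM is a level per transcript length, so the genes can be set in order. Over all 48 libraries Slc25a10, the mitochondrial dicarboxylate carrier that exchanges malate or succinate for phosphate, had the highest mean, at 60.5 ± 15.3 TPM (SD, n = 48). Glud1 followed at 56.9 ± 20.1 TPM. Glul, the glutamine synthetase that takes ammonia up again, averaged 23.6 ± 8.21 TPM, and Got2, the mitochondrial aspartate aminotransferase, 22.4 ± 6.67 TPM. Slc25a11, the carrier that exchanges alpha-ketoglutarate for malate, averaged 12.9 ± 3.67 TPM. Got1, the cytosolic aspartate aminotransferase, averaged 6.92 ± 2.71 TPM and Gpt2, the mitochondrial alanine aminotransferase, 5.31 ± 2.96 TPM. Slc38a3 was the lowest of the 8, at 3.50 ± 2.32 TPM. The other 7 genes reached 1 TPM in all 48 libraries and Slc38a3 in 45, and no member was at 0 in any library. Ordered by mean TPM, no 2 neighbouring groups differed by more than the larger of their SDs for any member, over 64 such neighbours. Sorting keeps neighbouring means close, so this does not show that groups further apart are alike. For Slc38a3 the group means ran from 1.81 to 5.62 TPM.

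**Figure D1:**
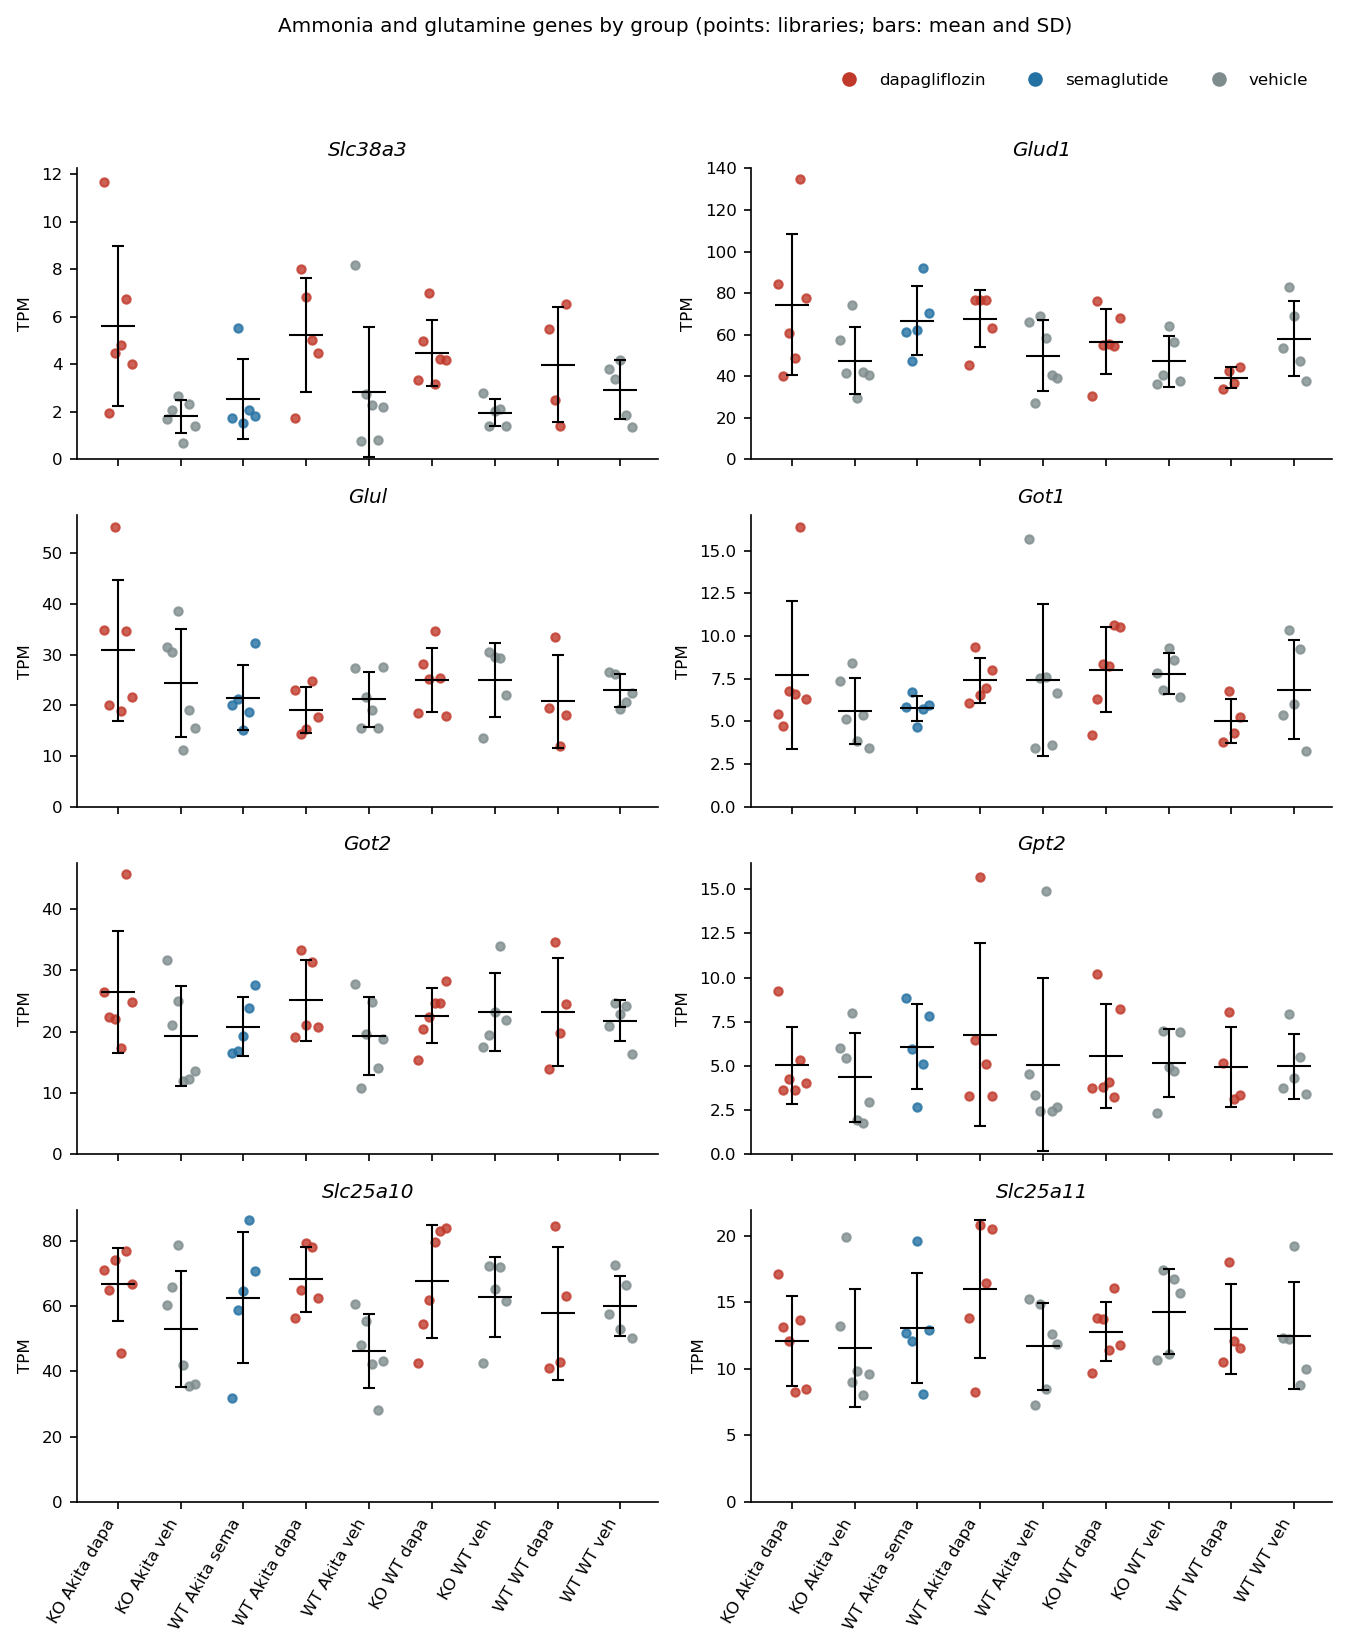
TPM of the 8 genes in every library (points), with group mean and SD (black), in the 9 groups; the first part of a group name is the Sglt1 genotype and the second the Ins2 genotype, where WT means non-diabetic. For Slc38a3 the 4 dapagliflozin groups have the 4 highest means, 3.98 to 5.62 TPM, while means of vehicle and semaglutide groups lie at 1.81 to 2.93 TPM. Within each background, dapagliflozin and vehicle libraries overlap for every gene, apart from Slc38a3 in knockout non-diabetic tubules.

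The glutamine transporter gene Slc38a3 had its 4 highest group means in the 4 dapagliflozin groups. Slc38a3 (chromosome 9, 107650634 to 107669530, minus strand, GRCm38) encodes SNAT3, a sodium-coupled glutamine transporter of the basolateral membrane. In knockout Akita tubules it had a lowest value of 1.95, a median of 4.66 and a highest value of 11.7 TPM with dapagliflozin, against 0.701, 1.88 and 2.68 TPM with vehicle. All but 1 of these dapagliflozin libraries lay above every vehicle library. In wild-type Akita tubules the 5 dapagliflozin libraries had 1.76, 4.49, 5.02, 6.85 and 8.02 TPM, against a lowest value of 0.781, a median of 2.25 and a highest value of 8.19 TPM with vehicle. Here the groups overlapped, because 1 vehicle library was the highest of all 11 and 1 dapagliflozin library lay below the vehicle median.

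Averaged over both Akita genotypes, the log2 difference of Slc38a3, dapagliflozin minus vehicle, was 0.99 ± 0.24 (SE) on the log2(TPM + 1) scale (limma, adjusted p = 0.0309). It exceeded the matched vehicle median in 10 of 11 libraries. Slc38a3 was the only one of the 8 members called at an adjusted p under 0.05 in this comparison, in which 104 of 12742 genes were called (0.816%), 102 of them higher. The scale understates the change of a gene this low. As a ratio of mean TPM, dapagliflozin over vehicle, Slc38a3 stood at 3.10 in knockouts and 1.84 in wild type. The wild-type ratio was 2.96 without the vehicle library at 8.19 TPM, and the wild-type log2 difference went from 0.83 to 1.13. Without the 4 libraries with fewer than 9000 genes that difference was instead 0.41 ± 0.36 in wild type. In knockouts it was 1.16 ± 0.35 without them, beside 1.14 with them. Fewer cells of a type and less RNA per cell cannot be told apart in captured tissue of this kind.

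This call was not held by every way of handling the data. Under 8 other settings it was made in 3 and missed in 5, with log2 differences of 0.78 to 1.31. Scaling libraries by the median of ratios, which brought the median gene from a shift of 0.17 to -0.01, left Slc38a3 at 0.81 (adjusted p = 0.0818). Leaving out the 4 libraries with fewer than 9000 genes, which had 0.781 and 0.810 TPM in wild type and 1.39 and 2.34 TPM in knockouts, gave 0.78 (adjusted p = 0.629, with 0 of 12694 genes called). With each library omitted in turn the difference was 0.88 to 1.14, with an adjusted p from 0.00619, without the vehicle library at 8.19 TPM, to 0.0844, without the one at 0.781 TPM, and called in 13 of 23 cases.

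**Figure D2:**
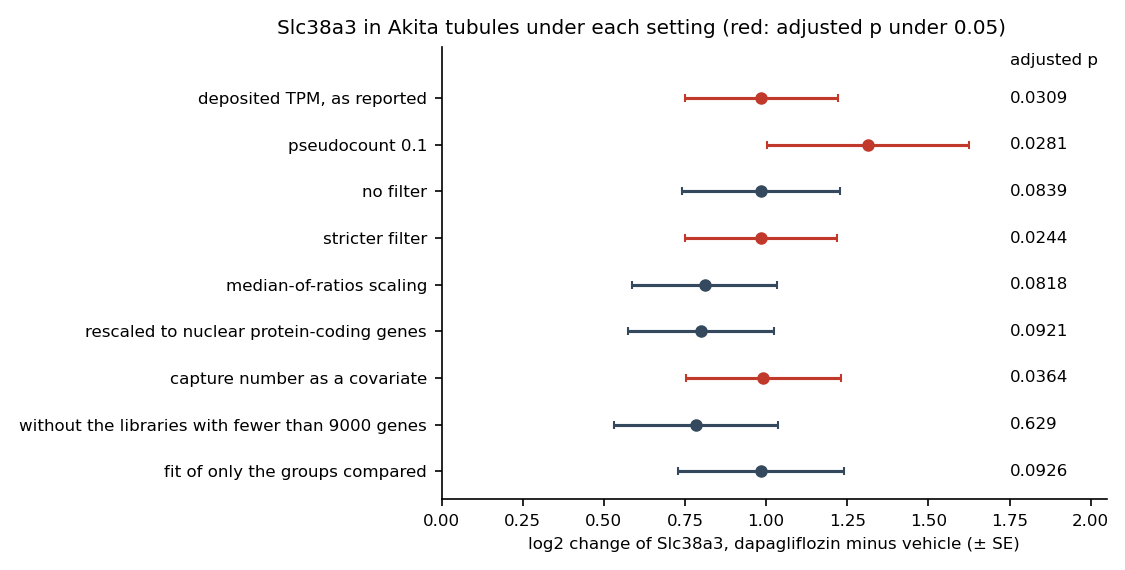
Log2 difference of Slc38a3 (points, bars: SE) between dapagliflozin and vehicle in Akita tubules, averaged over genotypes, as reported and under 8 other settings, with the adjusted p of each at the right. All differences lie between 0.78 and 1.31, and the adjusted p runs from 0.0244 to 0.629.

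Markers of the S3 segment were measured in the same groups. All 8 listed markers were detected and tested, and none was at 0 throughout any group. Their log2 differences with dapagliflozin in Akita tubules averaged over genotypes were above 0 for 8 of 8, with a median of 0.62 beside 0.17 over all genes, and none of the 8 was called. Their summed level ran from 521 to 926 TPM with dapagliflozin and from 298 to 1031 TPM with vehicle in knockouts, which overlapped. In wild type it ran from 541 to 901 TPM with dapagliflozin, from 371 to 1062 TPM with semaglutide and from 315 to 667 TPM with vehicle. Without diabetes, 0 of 8 S3 markers lay above 0 with dapagliflozin in wild type. Their median log2 difference there was -0.53, beside -0.13 over all genes and 0.26 for Slc38a3. In non-diabetic knockouts 7 of 8 lay above 0, with a median of 0.17, beside -0.06 over all genes and 0.88 for Slc38a3. No S3 marker was called in either. The part of these markers in the Slc38a3 result was not tested.

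Taken within each background, the same difference of Slc38a3 passed the threshold nowhere. It was 1.14 ± 0.32 in knockout Akita (adjusted p = 0.643) and 0.83 ± 0.34 in wild-type Akita tubules (adjusted p = 0.397). Limma called 0 of 12742 genes (0.0%) in each of these comparisons, with 967 and 1289 genes at an unadjusted p under 0.05. In knockout non-diabetic tubules Slc38a3 had a lowest value of 3.18, a median of 4.21 and a highest value of 7.01 TPM with dapagliflozin, against 1.42, 1.43, 2.03, 2.13 and 2.82 TPM with vehicle. Every dapagliflozin library was above every vehicle library there, which held for 6 of 12742 genes (0.0471%). Its log2 difference was 0.88 ± 0.34 (limma, adjusted p = 1), in a comparison with 1 gene called (0.00785%) and none of the members. In wild-type non-diabetic tubules the 4 dapagliflozin libraries had 1.40, 2.50, 5.48 and 6.53 TPM, against 1.37, 1.87, 3.39, 3.83 and 4.19 TPM with vehicle. These overlapped, with a difference of 0.26 ± 0.38 (adjusted p = 0.981) in a comparison with 0 genes called (0.0%) and 516 genes at an unadjusted p under 0.05.

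An average over all 4 backgrounds, chosen after the data were seen, put Slc38a3 at 0.78 ± 0.17 (limma, adjusted p = 0.186), above the matched vehicle median in 18 of 21 libraries. No gene was called there (0.0%), and 734 had an unadjusted p under 0.05. Without the wild-type Akita vehicle library at 8.19 TPM, this adjusted p was 0.035. That was the only call among 43 omissions of a single library. In the other 42 Slc38a3 was not called, and the adjusted p reached 0.375. The difference between backgrounds was tested by interaction terms, and none of them called a member or any other gene (0.0% each by limma, with 246 to 1423 genes at an unadjusted p under 0.05). For Slc38a3 the interaction of dapagliflozin with diabetes in wild type was 0.57 ± 0.51 (adjusted p = 0.643).

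**Figure D3:**
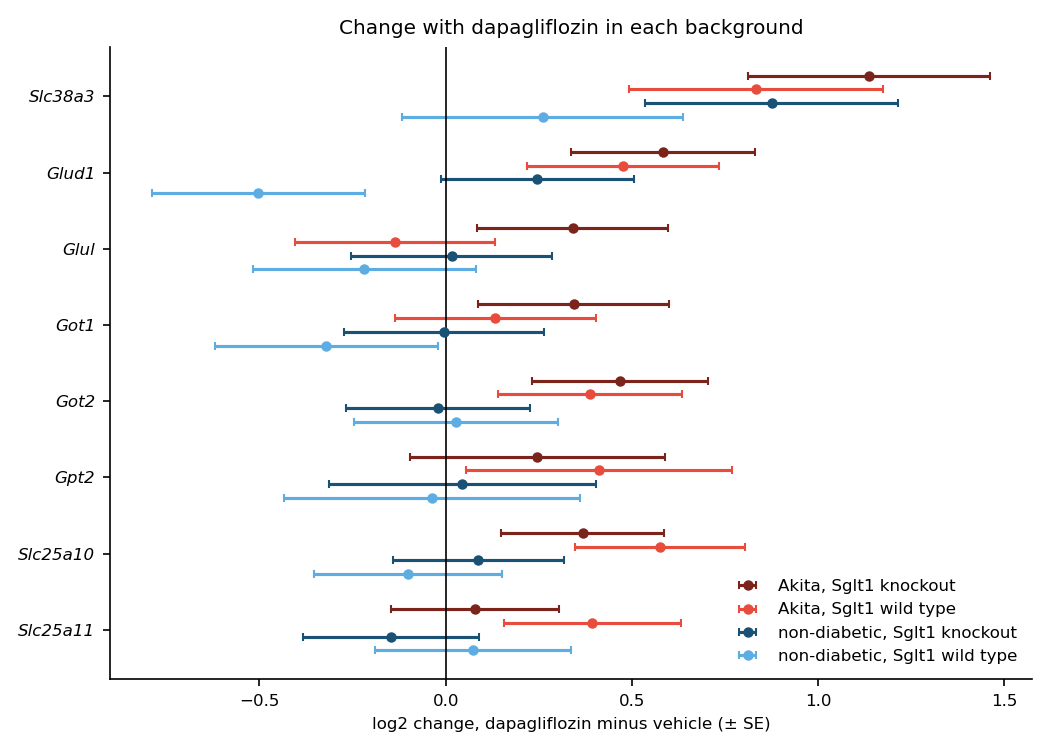
Log2 difference between dapagliflozin and vehicle (points, bars: SE) for each gene in the 4 backgrounds. Slc38a3 lies above 0 in all 4, at 0.26 to 1.14, and Glud1 is at -0.50 in wild-type non-diabetic tubules while its other differences lie above 0.

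Release of ammonia by glutamate dehydrogenase came next in size together with malate transport. Glud1 (chromosome 14, 34310727 to 34345265, plus strand) had a lowest value of 40.2, a median of 69.3 and a highest value of 135 TPM in knockout Akita dapagliflozin tubules, against 29.5, 41.8 and 74.5 TPM with vehicle. In wild-type Akita tubules it had 45.7, 63.0, 76.5, 76.6 and 76.9 TPM with dapagliflozin, against a lowest value of 27.1, a median of 49.4 and a highest value of 68.8 TPM with vehicle. Both sets overlapped, although 3 of 5 wild-type dapagliflozin libraries lay above every vehicle library. Averaged over genotypes the log2 difference of Glud1 was 0.53 ± 0.18 (limma, adjusted p = 0.123), higher than the matched vehicle median in 9 of 11 libraries, and did not pass the threshold. With median-of-ratios scaling it was 0.27 ± 0.14 (adjusted p = 0.46). The related pseudogene Glud-ps stayed between 0 and 3.07 TPM.

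Without diabetes, Glud1 lay the other way in wild type. The 4 dapagliflozin libraries had 33.9, 36.7, 42.7 and 44.4 TPM, against 37.7, 47.2, 53.4, 69.1 and 83.003 TPM with vehicle. All 4 were below the vehicle median, and the ranges overlapped. The log2 difference was -0.50 ± 0.29 (limma, adjusted p = 0.981). The interaction of dapagliflozin with diabetes in wild type was 0.98 ± 0.39 for Glud1 (limma, adjusted p = 0.354), the only one of the members at an unadjusted p under 0.05, which 1423 of all genes tested also had, and 0 genes were called. That interaction had a median of 0.32 over all genes, and Glud1 came to 0.51 ± 0.29 with median-of-ratios scaling (adjusted p = 0.729).

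For malate export, Slc25a10 (chromosome 11, 120491840 to 120499187, plus strand) had 56.4, 62.6, 64.9, 78.1 and 79.3 TPM in wild-type Akita dapagliflozin tubules, against a lowest value of 28.3, a median of 45.6 and a highest value of 60.8 TPM with vehicle. Only the lowest dapagliflozin library fell within the vehicle range. In knockout Akita tubules it had a lowest value of 45.8, a median of 69.1 and a highest value of 76.8 TPM with dapagliflozin, against 35.7, 51.2 and 78.7 TPM with vehicle, and these overlapped. The log2 difference averaged over genotypes was 0.47 ± 0.16 (limma, adjusted p = 0.121), with 10 of 11 libraries above the matched vehicle median. With median-of-ratios scaling it was 0.21 ± 0.10 (adjusted p = 0.427). Slc25a11 (chromosome 11, 70644196 to 70647479, minus strand), which works beside it on alpha-ketoglutarate and malate, differed by 0.24 ± 0.16 (adjusted p = 0.456). Annotated partners overlap these genes on the other strand, the antisense RNA Gm11788 at Slc25a10 and Rnf167 at Slc25a11. The sources used here do not say whether strand was used in quantification, so their reads may not be fully separated.

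The transaminases pass amino groups between glutamate, aspartate and alanine. Got2 (chromosome 8, 95864134 to 95888547, minus strand) had a lowest value of 17.4, a median of 23.6 and a highest value of 45.7 TPM in knockout Akita dapagliflozin tubules, against 11.9, 17.4 and 31.7 TPM with vehicle. In wild-type Akita tubules it had 19.1, 20.8, 21.1, 31.3 and 33.2 TPM with dapagliflozin, against a lowest value of 10.8, a median of 19.2 and a highest value of 27.8 TPM with vehicle. Dapagliflozin libraries overlapped vehicle libraries in both. Averaged over genotypes, the log2 difference of Got2 was 0.43 ± 0.17 (limma, adjusted p = 0.188), with 10 of 11 libraries above the matched vehicle median. Got1 (chromosome 19, 43499752 to 43524605, minus strand) differed by 0.24 ± 0.19 (adjusted p = 0.513) and Gpt2 (chromosome 8, 85492576 to 85527560, plus strand) by 0.33 ± 0.25 (adjusted p = 0.496). For both, single libraries stood far from their group. With dapagliflozin, Got1 was at 16.4 TPM in 1 knockout Akita library. Gpt2 was at 15.7 TPM in 1 wild-type and 9.25 TPM in 1 knockout Akita library with dapagliflozin. Wild-type Akita vehicle libraries stood apart too, 1 at 15.7 TPM for Got1 and another at 14.9 TPM for Gpt2. The pseudogene Got2-ps1 stayed between 0 and 2.62 TPM.

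Glul (chromosome 1, 153899944 to 153909723, plus strand), which runs against ammonia production by joining ammonia to glutamate, had the smallest averaged difference of the 8 in deposited TPM. It had a lowest value of 18.9, a median of 28.1 and a highest value of 55.2 TPM in knockout Akita dapagliflozin tubules, against 11.2, 24.9 and 38.6 TPM with vehicle. In wild-type Akita tubules it had 14.4, 15.4, 17.8, 23.0 and 24.8 TPM with dapagliflozin, against a lowest value of 15.5, a median of 20.5 and a highest value of 27.5 TPM with vehicle. The groups overlapped in both genotypes, although the highest knockout library with dapagliflozin lay above every vehicle library and the lowest with vehicle below every dapagliflozin library. The averaged log2 difference was 0.10 ± 0.19 (adjusted p = 0.804), the average of -0.14 in wild type and 0.34 in knockouts. With median-of-ratios scaling it was -0.15, and Slc25a11, Got1 and Gpt2 were then closer to 0. The genes Teddm2 and Mir8114 overlap Glul.

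As a set, all 8 members lay above 0 in Akita tubules with dapagliflozin averaged over genotypes, with a median log2 difference of 0.38, beside 0.17 over all genes tested. With median-of-ratios scaling 6 of 8 lay above 0 with a median of 0.15, and Glul and Slc25a11 turned slightly negative.

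**Figure D4:**
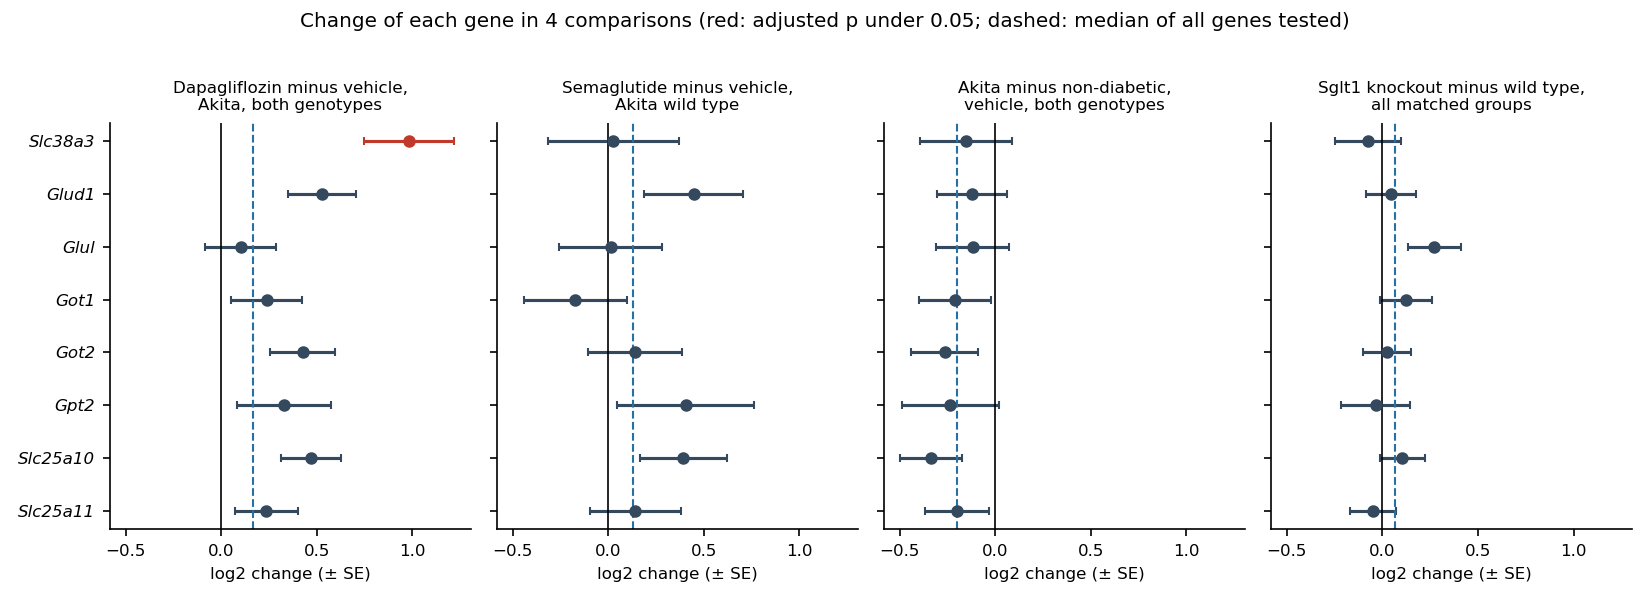
Log2 difference of each gene (points, bars: SE) in 4 comparisons; the dashed line is the median over all 12742 genes tested and red marks an adjusted p under 0.05. Only Slc38a3 with dapagliflozin in Akita tubules, at 0.99, is red, and with diabetes the genes lie around the all-gene median of -0.20.

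For Slc38a3 neither semaglutide against vehicle nor the contrast between the drugs passed the threshold. The 5 semaglutide libraries had 1.54, 1.73, 1.85, 2.08 and 5.53 TPM, against the vehicle values of wild-type Akita tubules given above. Against vehicle, 4 of the 5 lay below the median, and the log2 difference was 0.03 ± 0.34 (limma, adjusted p = 0.993). Without the vehicle library at 8.19 TPM the other vehicle libraries ran from 0.781 to 2.74 TPM, the semaglutide library at 5.53 TPM lay above all of them, and the difference was 0.33 ± 0.33 (adjusted p = 0.725). The ratio of mean TPM, semaglutide over vehicle, was 0.897 with that library and 1.44 without it. Semaglutide minus dapagliflozin was -0.81 ± 0.36 for Slc38a3 (limma, adjusted p = 1), with 4 of 5 semaglutide libraries below the dapagliflozin median. Glud1 had 47.4, 61.3, 62.4, 70.3 and 92.3 TPM with semaglutide, a difference from vehicle of 0.45 ± 0.26 (adjusted p = 0.875), and stood at -0.03 ± 0.27 from dapagliflozin (adjusted p = 1). Slc25a10 differed from vehicle by 0.39 ± 0.23 (adjusted p = 0.876) and Got1 by -0.17 ± 0.27 (adjusted p = 0.945). Limma called 0 genes in both comparisons (0.0%), with 742 genes against vehicle and 332 against dapagliflozin at an unadjusted p under 0.05. Both drugs were compared with the same vehicle libraries. The 5 semaglutide libraries carried capture numbers of 88 to 99 in their titles, while those of wild-type Akita libraries ran from 4 to 78 with dapagliflozin and from 1 to 82 with vehicle. Of the other groups only knockout ones reached the same numbers. In wild type, semaglutide and late capture therefore cannot be told apart. A covariate for the capture number takes a single slope as shared by all groups. With it the members ran from -0.16 to 0.29 against vehicle, with a median of 0.05 beside 0.05 over all genes. Glud1 was then at 0.29 ± 0.28 and Slc25a10 at 0.23 ± 0.25 (adjusted p = 1 for each), and Slc38a3 at -0.76 ± 0.38 from dapagliflozin (adjusted p = 0.993).

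Diabetes itself left no member called. Averaged over genotypes, Akita minus non-diabetic vehicle, all 8 members lay below 0, from -0.33 to -0.12 with a median of -0.21, beside -0.20 over all genes. In this comparison 71 genes were called (0.557%), 68 of them lower. The largest of the 8 was that of Slc25a10, at -0.33 ± 0.16 (limma, adjusted p = 0.257). Its group means were 53.1 ± 17.8 TPM in knockout Akita (n = 6) and 62.8 ± 12.2 TPM in knockout non-diabetic vehicle tubules (SD, n = 5), and 46.3 ± 11.4 TPM (n = 6) and 60.1 ± 9.32 TPM (n = 5) in the same wild-type groups. Slc38a3 stood at -0.15 ± 0.24 (adjusted p = 0.726) and Glud1 at -0.12 ± 0.18 (adjusted p = 0.72). With median-of-ratios scaling the all-gene median was -0.00 and 6 of 8 members lay above 0, from -0.05 to 0.16, so the direction of most members depended on the scaling. Within wild type 3 genes (0.0235%) and within knockouts 0 genes (0.0%) were called by limma, none of them a member, with 969 and 1836 genes at an unadjusted p under 0.05. Of the S3 markers, 8 of 8 lay below 0 in diabetes averaged over genotypes, and Slco1a1, an organic anion transporter, and Slc7a13, an aspartate and glutamate transporter of that segment, were called lower. Slco1a1 fell by 1.14 ± 0.25 on the log2 scale (adjusted p = 0.0255) and Slc7a13 fell by 0.87 ± 0.22 (adjusted p = 0.0488).

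Loss of Sglt1 was the third question, and no member was called for it. The log2 differences of the 8, knockout minus wild type averaged over the 4 matched pairs of groups, ran from -0.08 to 0.27, with 3 genes called in all (0.0235%). Glul was the highest, at 0.27 ± 0.14 (limma, adjusted p = 0.921), above the matched wild-type median in 16 of 23 libraries. In non-diabetic vehicle tubules alone 3 genes were called (0.0235%) and in Akita vehicle tubules 2 (0.0157%), again with no member. Slc38a3 in non-diabetic vehicle tubules had 1.42 to 2.82 TPM in knockouts and 1.37 to 4.19 TPM in wild type, and all 5 knockout libraries were below the wild-type median. The ranges overlapped, and the log2 difference was -0.36 ± 0.36 (limma, adjusted p = 0.981). In Akita vehicle tubules Slc38a3 had 0.701 to 2.68 TPM in knockouts and 0.781 to 8.19 TPM in wild type. These overlapped too, with a difference of -0.25 ± 0.32. The difference between the knockout effects with and without diabetes gave no call for any gene in limma (0.0%), and 406 genes were below an unadjusted p of 0.05.

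Other genes of the pathway were followed as 5 lists holding 44 genes, of which 38 were tested. With dapagliflozin in Akita tubules averaged over genotypes, 34 lay above 0 and 4 below in deposited TPM. Their median log2 difference was 0.32, beside 0.17 over all genes, and 1 was called. That gene was Pck1, phosphoenolpyruvate carboxykinase, which turns the oxaloacetate made from glutamine carbon towards glucose. Pck1 had a lowest value of 274, a median of 551 and a highest value of 884 TPM in knockout dapagliflozin tubules, against 160, 257 and 448 TPM with vehicle. In wild type its mean was 470 ± 119 TPM with dapagliflozin (n = 5) and 274 ± 94.1 TPM with vehicle (SD, n = 6). Its log2 difference was 0.89 ± 0.22 (limma, adjusted p = 0.041), with 11 of 11 libraries above the matched vehicle median. It was 0.70 without the libraries below 9000 genes (adjusted p = 0.69) and 0.63 after scaling by the median of ratios (adjusted p = 0.17). Pck1 was called in 8 of the 23 cases with a single library omitted.

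Among gamma-glutamyl transferase and related enzymes, 3 of 3 tested genes lay above 0 and none was called. Ggt1, which splits gamma-glutamyl bonds at the brush border, differed by 0.53 ± 0.16 (adjusted p = 0.0832). Of the plasma membrane carriers of glutamine and glutamate, 7 of 8 lay above 0 with a median of 0.15, below the all-gene 0.17, with Slc38a2 at 0.45 ± 0.15 (adjusted p = 0.124) and Slc1a1, a glutamate transporter, at 0.45 ± 0.16 (adjusted p = 0.145). Averaged over 4 backgrounds these carriers had a median of -0.05 with dapagliflozin (3 of 8 above 0), beside 0.04 over all genes. In wild-type non-diabetic tubules it was -0.50 (0 of 8 above 0), beside -0.13 over all genes. None was called in either, and their medians in the remaining dapagliflozin comparisons are not given here. Mitochondrial carriers were divided, with 2 of 4 above 0 and the aspartate-glutamate carrier Slc25a13 at 0.53 ± 0.20 (adjusted p = 0.159). All 15 tested enzymes that use the carbon of glutamine lay above 0, with a median of 0.38, Idh1 at 0.56 ± 0.17 (adjusted p = 0.0763) and Suclg2 at 0.54 ± 0.16 (adjusted p = 0.0801). Of the ammonium and acid transport genes 7 of 8 lay above 0, with the potassium channel subunit Kcnj16 at 0.50 ± 0.14 (adjusted p = 0.0691). The all-gene shift of 0.17 is included in each of these values. With diabetes averaged over genotypes 35 of the 38 lay below 0 and 3 above, and none was called. Their median was -0.32 beside -0.20 over all genes in deposited TPM, a shift that these counts include. Car4, a membrane carbonic anhydrase, stood at -0.70 ± 0.20 there (adjusted p = 0.0745), Pck1 at -0.61 ± 0.23 (adjusted p = 0.164) and Slc38a2 at -0.58 ± 0.16 (adjusted p = 0.0606).

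The members did not form 1 block across libraries. In deposited TPM all 28 pairs of members had a Pearson r above 0, from 0.182 to 0.730, where every value of a library shares its scale. After median-of-ratios scaling the r ran from -0.221 to 0.439 with a median of -0.005, and 13 of 28 were above 0. The highest were those of Glud1 with Got2 (0.439), Glud1 with Slc38a3 (0.394) and Got1 with Got2 (0.372). These are descriptions over 48 libraries that share treatments, and carry no test. Among 10120 protein-coding genes on the same scale, the most alike to Slc38a3 were Cyb561 (r = 0.634), a cytochrome of the b561 family, and BC035947 (r = 0.614). For Glud1 the closest was Hsd17b4 (r = 0.738), a peroxisomal beta-oxidation enzyme. Slc25a10 was closest to Slc13a2 (r = 0.761), the apical citrate and dicarboxylate transporter, and to Pck1 (r = 0.737). Got2 and Got1 shared the glycolytic enzyme Gapdh (r = 0.672 and 0.591), beside Ndufa11 (r = 0.655) for Got2 and Itgb6 (r = 0.606) for Got1. Glul was closest to Tsc22d3 (r = 0.616) and Dusp1 (r = 0.509), both known to be induced by glucocorticoids. Slc25a11 had lower values, with Arntl2 (r = 0.492) and Klc2 (r = 0.477), and Gpt2 had Fhod3 (r = 0.566) and Btbd6 (r = 0.521).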

How the data were processed

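RNA was sequenced from laser-captured SGLT2-positive tubules. Per the labels' protocols, the kit was a stranded one for total RNA, with an input of 0.5 ng at a DV200 (a measure of fragment length) over 30%. The authors deposited 1 table of TPM per gene and library. Salmon (version not given in the sources used here), MultiQC 1.8 and the build GRCm38 are named, per the submitters' processing notes. Its name states that outliers were taken out; the rule is not given in the sources used here, and such a step can narrow the spread and lower p-values. Of 54 labelled samples 48 had a column, matched through the number in each title, and 6 were not analysed here. The groups come from the labels. These do not tie samples to animals, and p-values therefore cover only the spread among these samples, some of which may be technical.

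In the deposited TPM, 1 transcript took 36.8% to 64.4% of a library and nuclear protein-coding genes 5.98% to 14.1%, and every other TPM value moves with those shares. Symbols were given to 12973 of 13233 rows named by Ensembl identifiers, and positions came from GENCODE on GRCm38, to which 51896 rows were matched. The 12742 genes that reached 1 TPM in 5 or more samples were tested. Values were analysed as log2(TPM + 1) in a 9-group linear model with limma 3.58.1 (R 4.3.3, statmod 1.5.0), with trended and robust variance moderation and 39 residual degrees of freedom. Every adjusted p is two-sided, from limma with Benjamini-Hochberg adjustment over all tested genes within a comparison. The code was tested on simulated data. An SE is that of the model.

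The members, the pathway lists and the marker lists were chosen with earlier results of these data known. The text names all members, genes of the lists that were called, up to 3 genes of each list with the largest differences in the 2 averaged comparisons, and for each member the 2 protein-coding genes with the highest r after median-of-ratios scaling. Some genes that this rule names are not reported here. The alternatives were a pseudocount of 0.1, no filter, a filter of 24 samples, median-of-ratios scaling, rescaling to nuclear protein-coding genes, the capture number as a covariate, omission of libraries with fewer than 9000 genes, a fit of only the groups compared, and omission of each library in turn.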

Additional observations from a re-analysis of the deposited data

Results flagged for a closer look

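Over 72 combinations of gene and group, there were 8 flags of a library far from the rest of its group (the gap to the nearest library, divided by the range of the group, was above Dixon's 95% critical value). Chance alone gives about 1 in 20 where values are independent and normally distributed. Values of the same library share its scale, so that rate is only a rough guide here. For Slc38a3 these were a wild-type Akita semaglutide library (replicate 3) at 5.53 TPM, with the others at 1.54 to 2.08 TPM, and a wild-type Akita vehicle library (replicate 1) at 8.19 TPM, with the others at 0.781 to 2.74 TPM. That vehicle library also stood apart for Got1, at 15.7 TPM against 3.43 to 7.59 TPM in the others.

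Knockout Akita dapagliflozin replicate 5 stood apart for Got1, at 16.4 TPM against 4.76 to 6.81 TPM, and for Got2, at 45.7 TPM against 17.4 to 26.5 TPM. The same library had the highest Glud1 level of all 48, at 135 TPM, and a nuclear protein-coding share of 14.1%. For Gpt2 the flags were wild-type Akita dapagliflozin replicate 4 at 15.7 TPM (others 3.28 to 6.46 TPM), knockout Akita dapagliflozin replicate 1 at 9.25 TPM (others 3.63 to 5.36 TPM) and wild-type Akita vehicle replicate 4 at 14.9 TPM (others 2.43 to 4.56 TPM). All 8 flags lay in Akita groups, which outnumber the non-diabetic groups here, and some libraries were flagged for more than 1 gene.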

How the results depend on the processing

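The number of members called with dapagliflozin in Akita tubules averaged over genotypes was 1 as reported. It was 0 with no filter, with median-of-ratios scaling, with rescaling to nuclear protein-coding genes, without the libraries below 9000 genes and when only the compared groups were fitted. With each library omitted in turn the count was 0 to 2. Without knockout Akita vehicle replicate 3, Slc25a10 was called beside Slc38a3 (adjusted p = 0.0488). For the average over all 4 backgrounds, chosen after the data were seen, the range was 0 to 1. In the other comparisons no setting changed the count of 0. For single members, 1064 of 1152 values under other settings were unchanged, as were 2604 of 2616 values with 1 library left out. Unchanged means the same side of the threshold and, where not called, a move of less than the SE. Direction was not part of this rule for values that were not called. No filter, the stricter filter and a fit of only the groups compared leave each difference as it was. Under them a value that was not called could change only by passing the threshold. These shares therefore do not measure how stable the differences are. None that was called turned its sign. Among values that were not called, 123 and 172 changed sign, the largest of them 1.51 and 0.77 SE from 0. Over all genes, the count called for dapagliflozin in Akita tubules averaged over genotypes was 104 as reported, 6 with no filter, 150 with the stricter filter, 54 with median-of-ratios scaling (31 higher and 23 lower), 72 (39 higher, 33 lower) when rescaled to nuclear protein-coding genes, 0 without the libraries below 9000 genes and 3 when only the compared groups were fitted. The cause was not tested. For diabetes averaged over genotypes it was 71 as reported, 18, 91, 22 (12 higher and 10 lower), 30 (13 higher and 17 lower), 4 and 30 under the same settings in that order, and 17 with the capture number as a covariate. Groups were compared as unpaired, because the labels tie no sample of 1 group to a sample of another. The labels give no replicate numbers, and those used here only name libraries, in the order of the records. Depth is unknown from TPM, which limits what can be said of Slc38a3 at levels near 1 TPM.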
